A study of Mus musculus with 6 samples.

Results

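The genes described here are the nuclear-encoded subunits of respiratory complexes I, II and III. Members were the protein-coding genes whose symbols begin with Ndufa, Ndufb, Ndufc, Ndufs or Ndufv, assembly factors left out, together with Sdha to Sdhd and 8 named Uqcr genes. This gave 50 of the 53700 gene identifiers in the count tables: 38 for complex I, 4 for complex II and 8 for complex III. RNA was measured in whole testes of mice of the strain Msl3em1Forni/C57BL/6J at postnatal day 45. Of 6 libraries, 3 came from animals labelled Msl3 wild type (WT) and 3 from animals labelled as conditional knockouts of a floxed Msl3 allele (cKO), in which a recombinase can cut out a flanked stretch of the gene. The recombinase, its driver and the exons removed are not given in the sources used here, and no other allele or agent is named. The title of the series asks whether spermatogenesis depends on Msl3, a subunit of the male-specific lethal chromatin complex.

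Complex I passes electrons from NADH to ubiquinone and pumps protons. Its core subunits carry the flavin and the iron-sulfur clusters, its accessory subunits surround them, and further core subunits of the membrane arm are encoded by mitochondrial DNA. Complex II is the succinate dehydrogenase of the citric acid cycle, with a flavoprotein, an iron-sulfur protein and a pair of membrane anchors. Complex III hands electrons from ubiquinol to cytochrome c and consists of large core proteins, the Rieske iron-sulfur protein, cytochromes and small subunits. In the testis, spermatogonia and Sertoli cells rely strongly on glycolysis, while spermatocytes and spermatids depend more on oxidative phosphorylation.

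The libraries held 56991431 to 73766444 reads assigned to genes. Every member was well covered, with 355 to 32904 reads in a library. The count of Msl3 itself was 942, 1226 and 990 in WT and 1170, 829 and 923 in cKO, with overlapping groups and a log2 fold change of -0.12 (edgeR quasi-likelihood test, Benjamini-Hochberg adjusted p 0.551). A count over the whole gene does not show whether particular exons are missing, so WT and cKO denote here the libraries so labelled. Markers of all 8 testicular cell types examined were present, with at least 141 reads per marker and library. Summed CPM (read counts scaled to library size) of 8 round spermatid markers were 1609 to 1711 in WT and 1535 to 1622 in cKO. Those of 8 elongating spermatid markers were 19669 to 21633 and 17378 to 20623. The 8 Sertoli markers summed to 1191 to 1446 and 1223 to 1580, the 7 pachytene markers to 7536 to 7698 and 7077 to 7793. Because the tissue was whole testis, fewer cells of a type and less RNA per cell cannot be told apart.

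Most members had slightly lower levels in cKO, and none passed the test. Fitted log2 fold changes (cKO against WT) were below 0 for 43 of the 50 members (86%), where 49.3% of all 21902 tested genes were below 0. Their median was -0.13, against 0.0031 over all genes. Member log2 fold changes ran from -0.34 to 0.10, that is, from 79.3% to 107% of the WT level. The number of members past an adjusted p of 0.05 was 0 in edgeR's quasi-likelihood test, which called 0.0183% of all genes. At an unadjusted p under 0.05 there were 18 members, all lower, where 6.54% of all genes were lower and 7.33% higher at that level. The lowest adjusted p of a member was 0.276. DESeq2, run as another test, called 1 member, Ndufb8, with an adjusted p of 0.0431, and called 0.507% of all genes lower. Without a filter on low counts edgeR called 7 members, all lower (Ndufb8, Ndufs4, Ndufa7, Uqcrq, Ndufa3, Ndufa4 and Uqcr10), and 1.1% of all genes lower, some of these names being given after their values were seen. The 95% limits of the members' cKO levels ran from 65.4% to 120% of WT, and no lower limit fell under 65.4%.

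In 20 members (40%) all 3 cKO levels lay below all 3 WT levels, against 8.85% of all tested genes. The reverse held for 2 members, Ndufa4l2 and Ndufs1, against 10% of all genes, and the groups overlapped for the other 28. Among ATP synthase genes, 10 of the 17 tested (58.8%) lay wholly below WT, and among ribosomal protein genes 28 of 75 (37.3%). By class, the cKO levels lay wholly below the WT levels for 13 of the 31 accessory subunits of complex I, 1 of its 7 core subunits, 1 of the 4 complex II subunits and 5 of the 8 complex III subunits. The median log2 fold change was -0.14 for the accessory and -0.04 for the core subunits of complex I. It was -0.05 for complex II and -0.17 for complex III, all 8 of whose members were below 0.

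**Figure D1:**
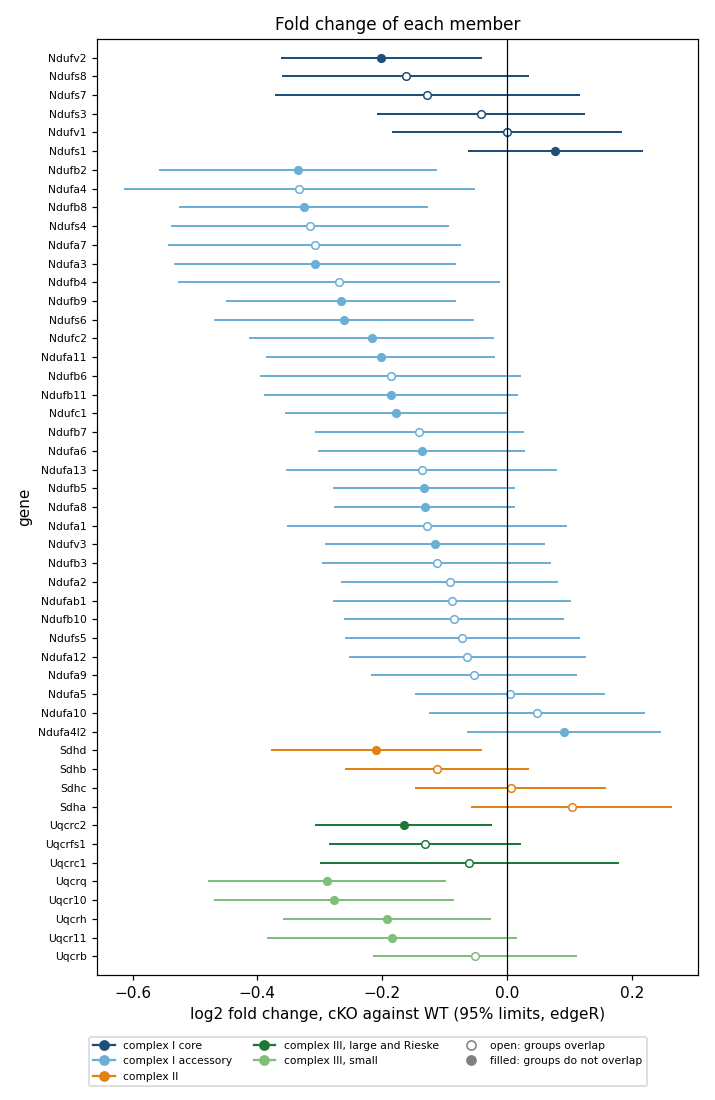
Fitted log2 fold change of 49 members, cKO against WT (x axis, points), with 95% limits (lines), coloured by class. Filled points mark members whose 3 WT and 3 cKO levels did not overlap; 42 points lie left of 0, and none of the complex III points lies right of it.

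The sequence around the transcription starts was examined for motifs that nuclear respiratory genes are known to carry. RefSeq promoter windows (GRCm38.p6, 250 bases before to 50 after the start) were at hand for 41 of the 50 members. Both strands were searched for the palindromic NRF1 motif, its shorter form TGCGCA, the ETS motif CCGGAAG and the YY1 motif. The shorter form overlaps the full NRF1 motif where a T precedes the latter or an A follows it. The shorter form was in 13 member windows (31.7%), against 8.79% of all 27025 windows and 11.3% of those of protein-coding genes. The ETS motif was in 8 (19.5%, against 9.93% and 13.4%) and the full NRF1 motif in 2, Ndufa11 and Uqcrc1 (4.88%, against 1.07% and 1.53%). The 120 bases before the start of Ndufa11 (chr17:56717642-56717761, plus strand) show the full NRF1 motif in capitals, beginning at base -60.
Ndufa11: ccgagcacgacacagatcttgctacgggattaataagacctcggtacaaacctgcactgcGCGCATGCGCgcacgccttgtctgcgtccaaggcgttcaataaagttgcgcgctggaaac
Ndufa11, an accessory subunit of complex I, had a log2 fold change of -0.20 without overlap between the groups.

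The YY1 motif was in 4 member windows (9.76%), against 0.755% of all windows and 1.12% of coding ones. The 4 genes are shown because the motif lies at the start codon in each. It follows the transcription start and its ATG is the annotated start codon. Capitals mark the motif, which begins at base 30 from the start in Ndufa9 (chr6:126849096-126849124, minus strand), 36 in Ndufs4 (chr13:114388045-114388068, minus), 34 in Ndufs6 (chr13:73328433-73328458, minus) and 25 in Ndufs7 (chr10:80249464-80249492, plus).
Ndufa9: ttgtgggagAAGATGGCGGCcgccgtccg
Ndufs4: gcctacaggAAGATGGCGGCggtc
Ndufs6: gtcaccggcAAGATGGCGGCggtgct
Ndufs7: gccgaggccAAGATGGCGGCgctggcggg
Log2 fold changes were -0.05 for Ndufa9, -0.32 for Ndufs4, -0.26 for Ndufs6 and -0.13 for Ndufs7, and the groups overlapped for all but Ndufs6. These 4 were picked for the motif and not by the rule that chose the other genes named with values. A match describes the letters in a window and not a bound site.

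Of the nuclear core subunits of complex I, 5 of 7 were below 0, and the 7 differed among themselves. Ndufv2, an iron-sulfur subunit next to the NADH site (chr17:66078638-66101559), had 284, 321 and 299 CPM in WT and 274, 243 and 268 CPM in cKO. All cKO libraries lay below all WT libraries, with a log2 fold change of -0.20 (SE 0.073, edgeR adjusted p 0.306). Ndufv1, which binds NADH and the flavin, had 138, 117 and 128 CPM in WT and 140, 118 and 125 CPM in cKO. Its groups covered nearly the same range, and cKO was at 100% of WT with 95% limits of 88.2% and 113%. Ndufs1, the largest subunit and a carrier of iron-sulfur clusters, had 118.81, 109.34 and 115.02 CPM in WT and 118.84, 121.4 and 121.79 CPM in cKO. Its cKO levels lay above the WT levels by a small margin in replicate 1, with a log2 fold change of 0.08 (SE 0.064, edgeR adjusted p 0.615).

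Ndufs3, Ndufs7 and Ndufs8 belong to the part of complex I that hands electrons to ubiquinone, and the groups overlapped for all 3. Ndufs3 had a log2 fold change of -0.04. Of the 31-mers of Ndufs3, 49.3% also occur in other genes, mainly the pseudogene Gm12251, which had 21 reads at most. Reads outside single genes were left out, so this count does not show how many reads of shared sequence are missing. Ndufs7 and Ndufs8, which carry iron-sulfur clusters, had log2 fold changes of -0.13 and -0.16. In Ndufs8 the levels were 30.2, 29.9 and 28.2 CPM in WT and 28.8, 22.7 and 27.2 CPM in cKO, with cKO replicate 2 far below the other 5 libraries. Adjusted p-values of these 3 core subunits in edgeR ran from 0.438 to 0.848.

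The single fold changes farthest from 0 were those of accessory subunits of complex I, of which 28 of 31 were below 0. At an unadjusted p under 0.05 in edgeR there were 12, all lower, as were 6.54% of all genes. As a class, the small subunits of complex III had a lower median, -0.19 against -0.14. Ndufb8, a membrane-arm subunit often blotted as a readout of assembled complex I (chr19:44548572-44555440), had 90.3, 106 and 101 CPM in WT and 72.7, 75.4 and 89.6 CPM in cKO. The highest cKO library was just under the lowest WT library, and the log2 fold change was -0.33 (SE 0.091, edgeR adjusted p 0.276), or 79.8% of WT. Ndufb2, another membrane-arm subunit, had 7.84, 9.29 and 8.69 CPM in WT and 6.78, 6.34 and 7.35 CPM in cKO. The groups did not overlap, with a log2 fold change of -0.34 (SE 0.10, edgeR adjusted p 0.288). Ndufb9, also of the membrane arm, had 40.9, 48.0 and 41.9 CPM in WT and 36.3, 33.6 and 39.0 CPM in cKO. Its groups did not overlap either, with a log2 fold change of -0.27 (SE 0.084, edgeR adjusted p 0.288). Each of these 3 genes overlaps an annotated gene on its own strand over 134 to 201 bases, where a read cannot be given to 1 gene.

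Some accessory subunits have roles of their own. Ndufab1, which is also the acyl carrier protein of mitochondrial fatty acid synthesis, had 11.74, 11.97 and 11.58 CPM in WT and 11.9, 10.1 and 11.1 CPM in cKO. The groups overlapped (log2 fold change -0.09, edgeR adjusted p 0.687). Ndufa4, now counted as a subunit of cytochrome c oxidase although its symbol places it here, had 15.2, 20.4 and 17.1 CPM in WT and 14.6, 11.4 and 15.8 CPM in cKO. WT replicate 2 was the highest and cKO replicate 2 the lowest library, the other 4 lay close together, and the log2 fold change was -0.33 (SE 0.13, edgeR adjusted p 0.312). Its paralog Ndufa4l2, known as a target of hypoxia signalling, had 24.3, 23.3 and 24.2 CPM in WT and 26.5, 25.5 and 24.5 CPM in cKO. Here cKO was above WT in all libraries, by a log2 fold change of 0.09 (SE 0.070, edgeR adjusted p 0.584). Ndufa10, an accessory subunit of the matrix side, had a log2 fold change of 0.05 with overlapping groups (edgeR adjusted p 0.827). Of the 22 accessory subunits not described singly, 9 lay wholly below WT: Ndufa3, Ndufa6, Ndufa8, Ndufa11, Ndufb5, Ndufc1, Ndufc2, Ndufs6 and Ndufv3, with log2 fold changes from -0.31 to -0.11. In the other 13 the groups overlapped, and log2 fold changes ran from -0.32 for Ndufs4 to 0.0048 for Ndufa5 (edgeR adjusted p 0.288 and 0.982).

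Both X-linked members belong to the membrane arm of complex I. Ndufb11 (chrX:20615326-20617619) had 12.2, 13.6 and 12.4 CPM in WT and 11.4, 10.1 and 12.1 CPM in cKO. The groups did not overlap, with a log2 fold change of -0.19 (SE 0.093, edgeR adjusted p 0.391). Ndufa1 (chrX:37187588-37191163) had 16.5, 18.9 and 17.3 CPM in WT and 17.5, 13.6 and 17.1 CPM in cKO. Here only cKO replicate 2 was low, and the log2 fold change of -0.13 (edgeR adjusted p 0.601) was 0.03 without replicate 2 of both groups.

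In complex II 2 of 4 members were below 0, and 3 of 4 after a correction for GC content and transcript length. Sdhd, a membrane anchor (chr9:50596357-50603812), had 58.4, 61.4 and 62.6 CPM in WT and 52.3, 48.1 and 57.4 CPM in cKO. The groups did not overlap, with a log2 fold change of -0.21 (SE 0.077, edgeR adjusted p 0.306). Sdha, the flavoprotein (chr13:74322254-74350280), had 169, 146 and 150 CPM in WT and 170, 169 and 161 CPM in cKO. WT replicate 1 lay within the cKO range, and the log2 fold change was 0.10 (SE 0.073, edgeR adjusted p 0.547), the highest of all 50 members. Sdhb, the iron-sulfur protein, and Sdhc, the other anchor, had log2 fold changes of -0.11 and 0.01 with overlapping groups (edgeR adjusted p 0.471 and 0.977). The difference between Sdhd and Sdha was not tested. Both promoters hold the shorter NRF1 form, which is why the 120 bases before their transcription starts are shown. Capitals mark TGCGCA, and in Sdhd also the ETS motif, which reads CTTCCGG on the strand printed. In Sdha (chr13:74350241-74350360, minus strand) TGCGCA begins at bases -56 and -11, and in Sdhd (chr9:50603850-50603969, minus strand) at -80 with the ETS motif at -46.
Sdha: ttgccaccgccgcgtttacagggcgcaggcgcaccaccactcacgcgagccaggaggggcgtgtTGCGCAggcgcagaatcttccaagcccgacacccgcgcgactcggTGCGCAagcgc
Sdhd: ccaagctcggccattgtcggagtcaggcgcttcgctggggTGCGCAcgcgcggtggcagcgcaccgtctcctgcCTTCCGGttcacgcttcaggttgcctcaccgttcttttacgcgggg

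All 8 members of complex III were below 0, and 7 of 8 after the correction for GC content and transcript length. Their median went from -0.17 to -0.07 with it, and Uqcrb turned to 0.17, wholly above WT. Uqcrq, a small subunit (chr11:53427922-53430831), had 217, 251 and 226 CPM in WT and 207, 168 and 193 CPM in cKO. The groups did not overlap, with a log2 fold change of -0.29 (SE 0.087, edgeR adjusted p 0.288). Uqcr10, another small subunit, had 65.9, 75.8 and 68.9 CPM in WT and 58.5, 51.4 and 63.8 CPM in cKO. Its groups did not overlap either, with a log2 fold change of -0.28 (SE 0.087, edgeR adjusted p 0.288). The other small subunits, Uqcr11, Uqcrb and Uqcrh, had log2 fold changes from -0.19 to -0.05.

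The large proteins of complex III had log2 fold changes from -0.17 to -0.06. Uqcrc2, a core protein, had 129, 137 and 131 CPM in WT and 119, 113 and 121 CPM in cKO, without overlap (log2 fold change -0.17, SE 0.064, edgeR adjusted p 0.313). Its partner Uqcrc1 had 437, 359 and 391 CPM in WT and 451, 332 and 355 CPM in cKO. Replicate 1 was the highest library in both groups, and the log2 fold change was -0.06 (SE 0.11, edgeR adjusted p 0.849). Uqcrfs1, the Rieske protein, had 100.03, 112 and 103 CPM in WT and 94.8, 92.5 and 101 CPM in cKO. The groups overlapped by 1 library, with a log2 fold change of -0.13 (SE 0.070, edgeR adjusted p 0.422).

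**Figure D2:**
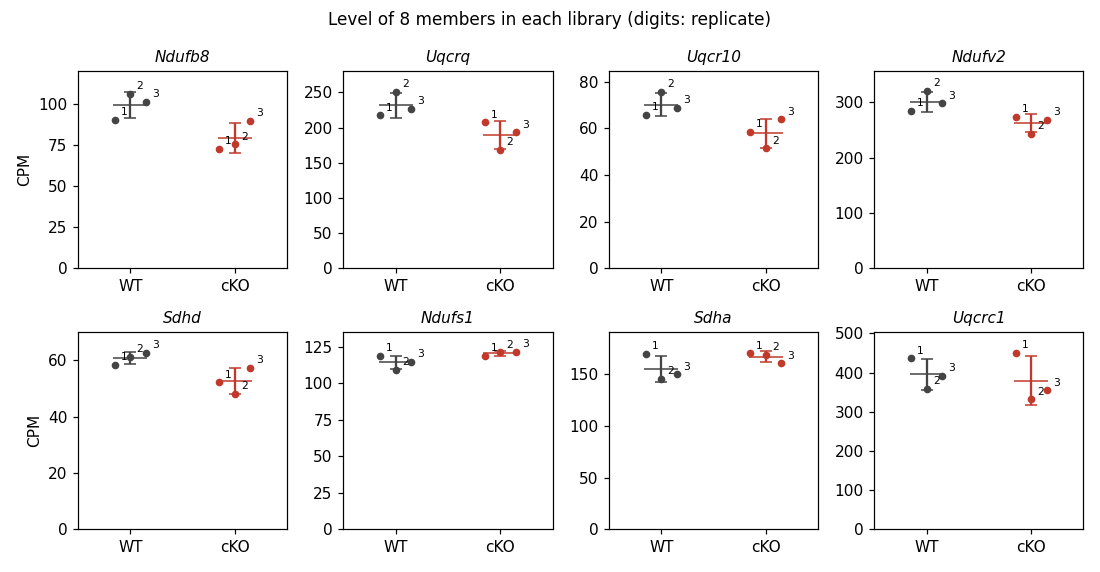
CPM of 8 members in each library (y axis, from 0), by group on the x axis; digits give the replicate, horizontal bars the mean and error bars the SD of 3 libraries. Ndufb8, Uqcrq, Uqcr10, Ndufv2 and Sdhd lie lower in all cKO libraries, while Sdha and Uqcrc1 overlap and the cKO levels of Ndufs1 reach down to its highest WT level.

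Levels of different genes were compared per kb of annotated exon, as WT means. In complex I, Ndufv2 was highest with 140 ± 8.58 CPM per kb (SD, n = 3) and Ndufb2 lowest with 1.53 ± 0.129, followed by Ndufab1 with 1.71 ± 0.0286. On the length of 1 coding transcript Ndufa7 was highest with 244 ± 31.01 CPM per kb, where Ndufv2 had 178. The annotated exons of Ndufb2 and Ndufab1 are long for such short proteins, and on 1 coding transcript their levels were 18.9 and 8.31 CPM per kb, the latter being the lowest of complex I. In complex II, Sdhd (49.4 ± 1.76) and Sdhb (42.2 ± 1.27) led, ahead of Sdha (37.6 ± 3.05) and Sdhc (19.3 ± 1.03). On 1 coding transcript the order changed, with Sdhb at 82.6, Sdha at 53.5, Sdhd at 49.4 and Sdhc at 19.8 CPM per kb. In complex III, Uqcrq (126 ± 9.58) and Uqcr10 (120.2 ± 8.70) were highest per kb of exon, with overlapping SD ranges. Both were measured in the same libraries, and the difference between them was not tested. Uqcrc1 followed with 95.7 ± 9.47, Uqcrfs1 with 77.1 ± 4.71 and Uqcrc2 with 51.8 ± 1.65, and Uqcr11 was lowest with 32.4 ± 1.95. On 1 coding transcript this order changed too, with Uqcrq at 572 ± 43.3, Uqcrc1 at 239 ± 23.7 and Uqcr10 at 162 ± 11.7 CPM per kb, whose SD ranges do not overlap, and Uqcr11 again lowest at 46.6. Subunits of 1 complex thus spanned a wide range of RNA levels per length.

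The share of assigned reads taken by the 50 members was 0.371%, 0.388% and 0.370% in WT and 0.360%, 0.310% and 0.345% in cKO. All cKO shares lay below the WT shares, and the cKO mean was 89.9% of the WT mean. For complex I the cKO mean was 89.4% of WT, for complex II 97.2% and for complex III 88.3%. Replicate 2 of each group stood apart from the rest in this measure. The median over the members of the deviation from each gene's mean, on the log2 scale, was 0.05, 0.14 and 0.05 in WT 1, 2 and 3 and 0.01, -0.20 and -0.02 in cKO 1, 2 and 3. WT replicate 2 was the highest of the 6 libraries for 29 members, and cKO replicate 2 the lowest for 42. Without cKO replicate 2 the median log2 fold change of the members was -0.08, and without replicate 2 of both groups it was -0.06, with 39 members below 0, as were 48.6% of all genes. Without cKO replicate 1 the median was -0.19, and Ndufa3 and Uqcrq passed the threshold (edgeR adjusted p 0.0306 and 0.0405), where 0.355% of all genes were called lower. In that fit 33 members lay wholly below WT, as did 15.5% of all genes.

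**Figure D3:**
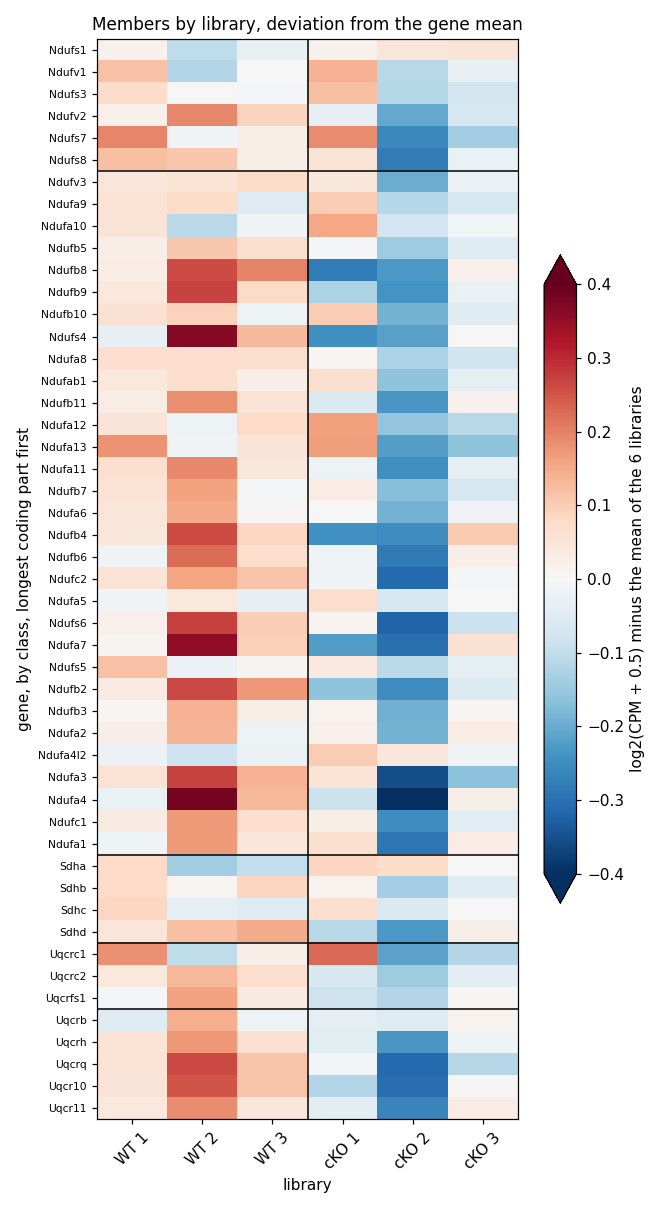
Deviation of log2(CPM + 0.5) from the mean of the 6 libraries (colour, red high and blue low) for 49 members (rows, by class and then by coding length) in each library (columns). WT replicate 2 is the reddest column and cKO replicate 2 the bluest, where 42 of all 50 members had their lowest level.

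Replicate 1 stood higher in some classes. The median deviations of the core subunits of complex I were 0.12, -0.01 and 0.00075 in WT and 0.10, -0.12 and -0.05 in cKO, so that replicate 1 was the highest library of both groups. The same held for complex II, with 0.08 in WT replicate 1 and 0.04 in cKO replicate 1, and for the 15 members with over 600 coding bases, with 0.07 and 0.08. Small subunits of complex III had 0.05, 0.19 and 0.06 in WT and -0.04, -0.26 and 0.01 in cKO. Other gene groups moved with the members. Ribosomal protein genes (75 tested) had median deviations of 0.03, 0.18 and 0.05 in WT and -0.02, -0.23 and -0.02 in cKO, and ATP synthase genes (17 tested) 0.04, 0.14 and 0.05 in WT and -0.02, -0.19 and -0.04 in cKO. The 8 round spermatid markers had 0.01, 0.16 and 0.07 in WT and -0.04, -0.08 and -0.06 in cKO. Their log2 fold changes were below 0 in 6 of 8 (median -0.15). Leydig markers were likewise below 0 in 6 of 8 (median -0.14). So were 4 of 5 peritubular myoid markers (median -0.04) and 4 of 6 macrophage markers (median -0.08). Elongating spermatid markers were below 0 in 4 of 8 and pachytene markers in 3 of 7. Of the 8 Sertoli markers 7 were above 0 (median log2 fold change 0.09) and 2 lay wholly above WT, and of the 8 spermatogonia markers 6 were above 0 (median 0.10), with overlapping groups for all 8. Besides the round spermatid markers, those of Leydig cells (-0.25), Sertoli cells (-0.17), macrophages (-0.15) and elongating spermatids (-0.13) had their lowest median deviation in cKO replicate 2. The part of these cell types in the members' result was not tested.

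Members with short coding sequences were lower more often than long ones. A limit of 600 bases of coding sequence was chosen after the values had been seen. Of the 35 members up to 600 bases, 32 were below 0, with a median log2 fold change of -0.18, and 17 lay wholly below WT. Of the 15 longer members, 11 were below 0, with a median of -0.06, and 3 lay wholly below WT: Ndufv2, Ndufv3 and Uqcrc2. Other protein-coding genes were split in the same direction. Of 2210 other genes up to 600 bases, 75.2% were below 0, with a median of -0.10, and 19.2% lay wholly below WT. Of 14091 longer ones, 37.7% were below 0, with a median of 0.05, and 5.64% lay wholly below WT. Over the 50 members, Spearman's rho between coding length and log2 fold change was 0.44 and Pearson's r with the log2 of the length was 0.51. This is a description across genes of the same 6 libraries, which are not independent replicates.

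**Figure D4:**
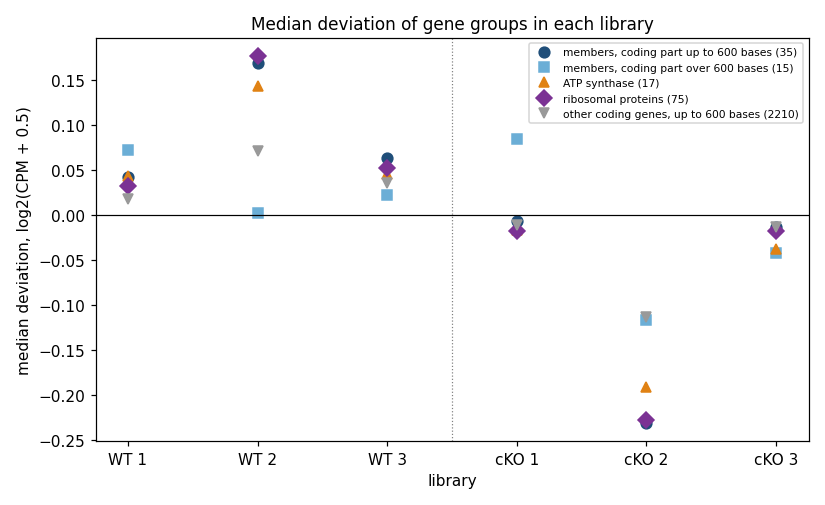
Median deviation of log2(CPM + 0.5) from the mean of the 6 libraries (y axis) for members up to and over 600 coding bases, ATP synthase genes, ribosomal protein genes and other coding genes up to 600 bases (symbols), in each library (x axis). Short members, ATP synthase and ribosomal protein genes lie together in WT replicate 2 (0.14 to 0.18) and cKO replicate 2 (-0.23 to -0.19), and other short coding genes lie nearer to 0 on the same sides.

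A correction for GC content and transcript length in each library brought the median of the members closer to 0. After it, 34 of 50 members were below 0 (48.6% of all genes), with a median log2 fold change of -0.07, and rho with coding length was 0.15. By class, 3 of 7 core and 21 of 31 accessory subunits of complex I were then below 0. So were 3 of 4 members of complex II and 7 of 8 of complex III. The members wholly below WT were then 7 of 50, against 7.09% of all genes: Ndufb8, Ndufa11, Ndufb5, Ndufb7, Ndufb2, Uqcrq and Uqcrc2. Those wholly above WT were 4 of 50, near the share of 7.5% over all genes: Ndufa5, Ndufa4l2, Ndufs1 and Uqcrb. Some of these 11 names fall outside the naming rule and are given after their values were seen. Of the 20 members wholly below WT before the correction, 6 were so after it. Ndufb8 kept a log2 fold change of -0.28 and Uqcrq of -0.22, while that of Ndufa1 turned to 0.07. Ndufb2 and Ndufb7 lay farther from 0 than before, at -0.36 and -0.23 against -0.34 and -0.14. The correction used the longest annotated transcript of each gene. In Ndufb2, Ndufb7, Ndufb5, Ndufb8, Uqcrq and Ndufa11 it has 4371, 4435, 3127, 2142, 1521 and 918 bases. The coding transcript used for levels per kb has 455, 623, 1079, 680, 405 and 545. In Uqcrc2 (1896 bases) and Ndufa1 (419) both lengths are equal. The part of this choice of length in the corrected values was not tested. Under the same correction the median of the ATP synthase genes went from -0.13 to -0.02 and that of the ribosomal protein genes from -0.17 to -0.07.

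**Figure D5:**
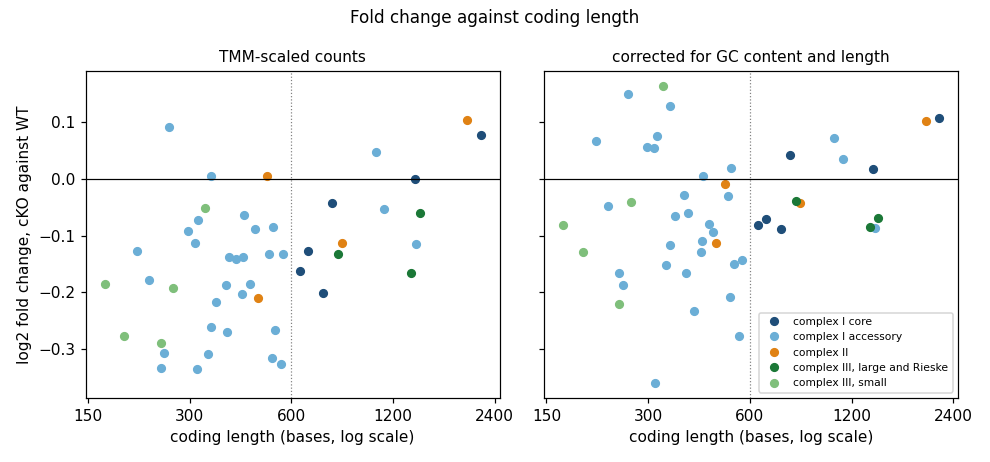
Log2 fold change of 49 members, cKO against WT (y axis), against coding length in bases (x axis, log scale), from TMM-scaled counts (left) and after correction for GC content and transcript length (right), coloured by class; the dotted line marks 600 bases. In the left panel short members lie lower, with a Spearman's rho of 0.44 over all 50, and in the right panel rho over all 50 is 0.15.

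Among the genes that build and regulate these complexes, edgeR and DESeq2 each called 0, though most of the assembly genes were below 0. Of 17 assembly factors of complex I, 16 were below 0, with a median log2 fold change of -0.08, and 3 had an unadjusted p under 0.05, all lower: Tmem70, Ndufaf5 and Ndufaf2. All 4 assembly factors of complex II were below 0 (median -0.10, 0 at an unadjusted p under 0.05). Of 7 further complex III genes, 6 were below 0 (median -0.10). Uqcc2, which helps to assemble cytochrome b, was the 1 gene of these at an unadjusted p under 0.05, with 228, 282 and 248 CPM in WT and 207, 183 and 230 CPM in cKO. Its groups overlapped, and the log2 fold change was -0.29 (SE 0.096, edgeR adjusted p 0.296). Cyc1, the cytochrome of complex III that passes electrons to cytochrome c, had a log2 fold change of -0.06. After the correction for GC content and transcript length, 14 of the 17 complex I assembly factors were below 0. So were 3 of 4 for complex II and 5 of the 7 further complex III genes.

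Regulators of respiratory genes were split, with 4 of 8 below 0, a median of 0.02 and 0 at an unadjusted p under 0.05. After the correction for GC content and transcript length 6 of 8 were below 0, with a median of -0.04. Tfam, which packages and transcribes mitochondrial DNA, and Esrra, a nuclear receptor that acts on respiratory genes, lay wholly below WT (log2 fold changes -0.12 and -0.16). Yy1, the factor whose motif follows the start of 4 members, lay wholly above WT (0.10). Over all tested genes 8.85% lay wholly below WT and 10% wholly above. Nrf1 had a log2 fold change of -0.05 and Gabpa, an ETS factor, of 0.13, with overlapping groups. ATP synthase genes were below 0 in 14 of 17, with a median of -0.13, the same as the members to 2 decimals. Of these, 7 were at an unadjusted p under 0.05, all lower, and edgeR and DESeq2 each called 0.

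The subunits of complexes I and III that mitochondrial DNA encodes went the other way, with wide scatter. Of the 8 listed, 6 had enough reads to be tested. All 6 were above 0, with a median log2 fold change of 0.33, and their groups overlapped. The level of mt-Nd5 was 279, 359 and 184 CPM in WT and 229, 383 and 450 CPM in cKO. That of mt-Cytb, the cytochrome b of complex III, was 341, 485 and 237 CPM in WT and 289, 465 and 581 CPM in cKO. WT replicate 3 was the lowest library for both and cKO replicate 3 the highest, unlike the nuclear members. The lowest unadjusted p of the 6, for mt-Nd6, was 0.0414 (edgeR adjusted p 0.346), and edgeR and DESeq2 each called 0.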

How the data were processed

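Total RNA of whole testes was sequenced as single-end reads of 75 bp. The deposited values are read counts per gene without normalisation, 1 table per library in the layout of STAR's gene counts. The submitters' processing notes name STAR, HTSeq, DESeq2 and mm10, without versions, and the library kit and annotation release are not given in the sources used here. Opposite-strand counts, which made up 96.0% to 96.2% of stranded reads, were used. Reads outside single genes (14.8% to 16.7%) were left out. Names, coordinates and coding lengths came from GENCODE M21 (GRCm38), which matched 52147 of 53700 identifiers.

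Groups were compared with the quasi-likelihood F test of edgeR 4.0.16 in R 4.3.3, with no covariates. Libraries were scaled by TMM, and genes were kept by filterByExpr at a minimum count of 10. The p-values of the 21902 genes kept were adjusted by the Benjamini-Hochberg method, with a threshold of 0.05. CPM used TMM-scaled library sizes, and 0.5 was added before logs. Standard errors came from the F statistic. The common biological coefficient of variation was 8.79%. Alternatives were RLE scaling, library totals alone, no low-count filter, at least 10 reads in every library, a replicate block, unstranded counts, a robust fit, DESeq2 1.42.0, a threshold of 0.1, a loess correction for GC content and transcript length (span 0.3), all reads as the denominator of shares, and each library left out. Leaving out replicate 2 of both groups and the length of 1 coding transcript were added once results were known. The labels call the samples biological replicates.

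Members and gene lists were chosen with earlier results of these data known. The values of 1 member are not reported here, though counts and medians include it. Genes named with values were core subunits, all of complex II, Ndufab1, Ndufa4, Ndufa4l2, the X-linked members, the 5 with the lowest p in each direction and the highest and lowest per length in each complex.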

Additional observations from a re-analysis of the deposited data

How the results depend on the processing

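Over the alternatives run, the median log2 fold change of the members stayed below 0 (-0.19 to -0.06) and 34 to 47 members were below 0. The share of reads taken by the members in cKO was 87.0% to 93.6% of WT. The 4 genes called over the whole table became 757 without a filter on low counts, 2 with unstranded counts, 49 with the replicate block, 209 with DESeq2, 1 without replicate 2 of both groups and 1 to 628 when single libraries were left out (628 without cKO replicate 1, 116 without WT replicate 1). The members called, 0 in the fit reported, became 7 without the filter, 1 with DESeq2 and 0 to 2 when single libraries were left out, 2 being the number without cKO replicate 1. Members without overlap, 22 in both directions, became 11 after the correction for GC content and transcript length and 22 to 35 when single libraries were left out (35 without cKO replicate 1), while the share over all genes, 18.9% with all libraries, was 14.6% after the correction and 23.5% to 37.5% without single libraries. The cause of these shifts was not tested. With the replicate block 0 members were called and their median was -0.14, but the labels do not say that equal numbers share an origin, and deviations of same-numbered libraries correlated at 0.34, 0.26 and -0.04. The separation of Ndufs1 was lost with library totals and without WT replicate 3, that of Ndufa4l2 with RLE scaling and DESeq2, and both without the filter and with at least 10 reads in every library. Members near 0 changed sign. The log2 fold change of Ndufv1 was -0.00068 with RLE scaling, -0.026 with library totals, -0.0090 without the filter, -0.0081 with at least 10 reads in every library, -0.00092 unstranded, -0.00035 with the replicate block, -0.00069 with DESeq2, -0.0027 without replicate 2 of both groups and -0.073 to 0.062 without single libraries. That of Sdhc was -0.021 with library totals, -0.0036 without the filter, -0.0024 with at least 10 reads in every library, -0.0084 after the correction and -0.028 to 0.052 without single libraries. After the correction Ndufa1 had 0.067 and Ndufs3 0.043. Without single libraries the ranges were -0.12 to 0.0050 for Ndufs3, -0.20 to 0.028 for Uqcrc1, -0.022 to 0.098 for Ndufa10 and -0.20 to -0.021 for Ndufa1, which had 0.033 without replicate 2 of both groups. The lowest count of a member was 355 reads in a library, and all 50 were tested in each of these fits. Of the members, 11 share over 10% of their 31-mers with other genes.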
